A study of Mus musculus with 2 samples.

Results

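This account concerns 40 mouse genes of mitosis and chromosome segregation in common myeloid progenitors (CMP), bone marrow cells that give rise to granulocytes, monocytes, red cells and megakaryocytes. The genes were taken by name from a list of mitotic regulators and structural proteins, a rule that uses no measured value although the list was drawn up with earlier results of these data known, and all 40 were found among the 43346 mouse genes and the 21461 nuclear protein-coding genes of the deposited tables. They cover 8 roles: mitotic kinases with the Aurora A activator Tpx2, the chromosomal passenger complex, the spindle checkpoint, the kinetochore, anaphase onset, condensin and chromosome structure, spindle motors, and the midzone with cytokinesis. Both libraries belong to 1 group, CMP from male C57BL/6J adults of 5 to 6 weeks with no treatment or engineered allele in the labels, and each was made from total RNA longer than 200 nucleotides of a pool of 100 primary cells with spike-in RNA added. The labels number the libraries as biological replicates 1 and 2 and give both the same donor identifier, and nothing says that the pools came from separate animals. The series therefore has no contrast between conditions, and the results below describe levels in CMP and differences between the 2 pools.

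Mitosis is driven by cyclin B with CDK1 and by the Polo and Aurora kinases, which condense chromosomes through condensin, build the spindle with kinesin motors and fix chromosomes to it at kinetochores. The spindle checkpoint holds the anaphase-promoting complex in check until every kinetochore is attached. Once the checkpoint is satisfied, Cdc20 activates this complex and separase is freed from securin. Cohesin is cut, and the midzone proteins then place the cleavage furrow. Transcripts of many of these genes accumulate in G2 and M phase, and committed blood progenitors are known as a rapidly dividing population. In RNA from pooled cells, a smaller number of cells in mitosis and less RNA per such cell cannot be told apart.

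The gene tables held 28916263 expected counts in replicate 1 and 26426710 in replicate 2, so a gene with 0 counts could have up to 0.104 or 0.114 CPM (the level of 3 counts, a floor for counting error only, as reads lacking molecular identifiers may be copies of 1 molecule). Nuclear protein-coding genes held 43.9% and 45.3% of these counts. The CMP label was checked against the markers of its usual sorting gate. Kit, the stem cell factor receptor, had 98.14 TPM (transcripts per fixed total, a level corrected for gene length and depth) in replicate 1 and 92.95 in replicate 2, Cd34 had 74.54 and 55.4 TPM, and both Il7r and Ly6a, which the gate excludes, had 0 counts in both libraries. The Fc gamma receptors, by whose surface level CMP are parted from neighbouring progenitors, differed between the pools: Fcgr3 had 0.64 TPM in replicate 1 and 4.27 TPM in replicate 2, with 15 and 99 counts (log2 count ratio -2.66), and Fcgr2b had 2.48 and 9.59 TPM, with 92 and 226 counts (ratio -1.26). Their part in the differences of the mitosis genes was not tested. Markers of mature cells were low but not all absent: 3 of 9 neutrophil, 5 of 8 erythroblast, 4 of 6 megakaryocyte, 4 of 7 monocyte and macrophage, 1 of 6 B cell, 0 of 6 T and NK cell and 2 of 6 stromal and endothelial markers reached 1 TPM in both libraries.

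All 40 mitosis genes reached the detection level of 1 TPM in each library, as did 44.9% of nuclear protein-coding genes. Their levels ran between 4.5 and 116.71 TPM in replicate 1, a 25.9-fold range, and between 2.22 and 99.16 TPM in replicate 2, a 44.7-fold range. The median member stood at 15.0 TPM in replicate 1 and 12.3 TPM in replicate 2 (13.7 ± 1.86, SD, n = 2 libraries), beside 13.2 and 13.5 TPM for the median detected nuclear protein-coding gene (13.3 ± 0.219). Of the 40 genes, 23 lay above that median in replicate 1 and 19 in replicate 2. Together they held 917 TPM in replicate 1 and 785 TPM in replicate 2, which is 0.243% and 0.200% of the TPM of nuclear protein-coding genes. The order of the genes was alike in both libraries, with Pearson's r of 0.82 for log2(TPM + 1) and Spearman's rho of 0.76 across the 40 genes, against an r of 0.91 across the 9627 detected genes. These coefficients are across genes, which are not independent replicates and share libraries and gene lengths.

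**Figure D1:**
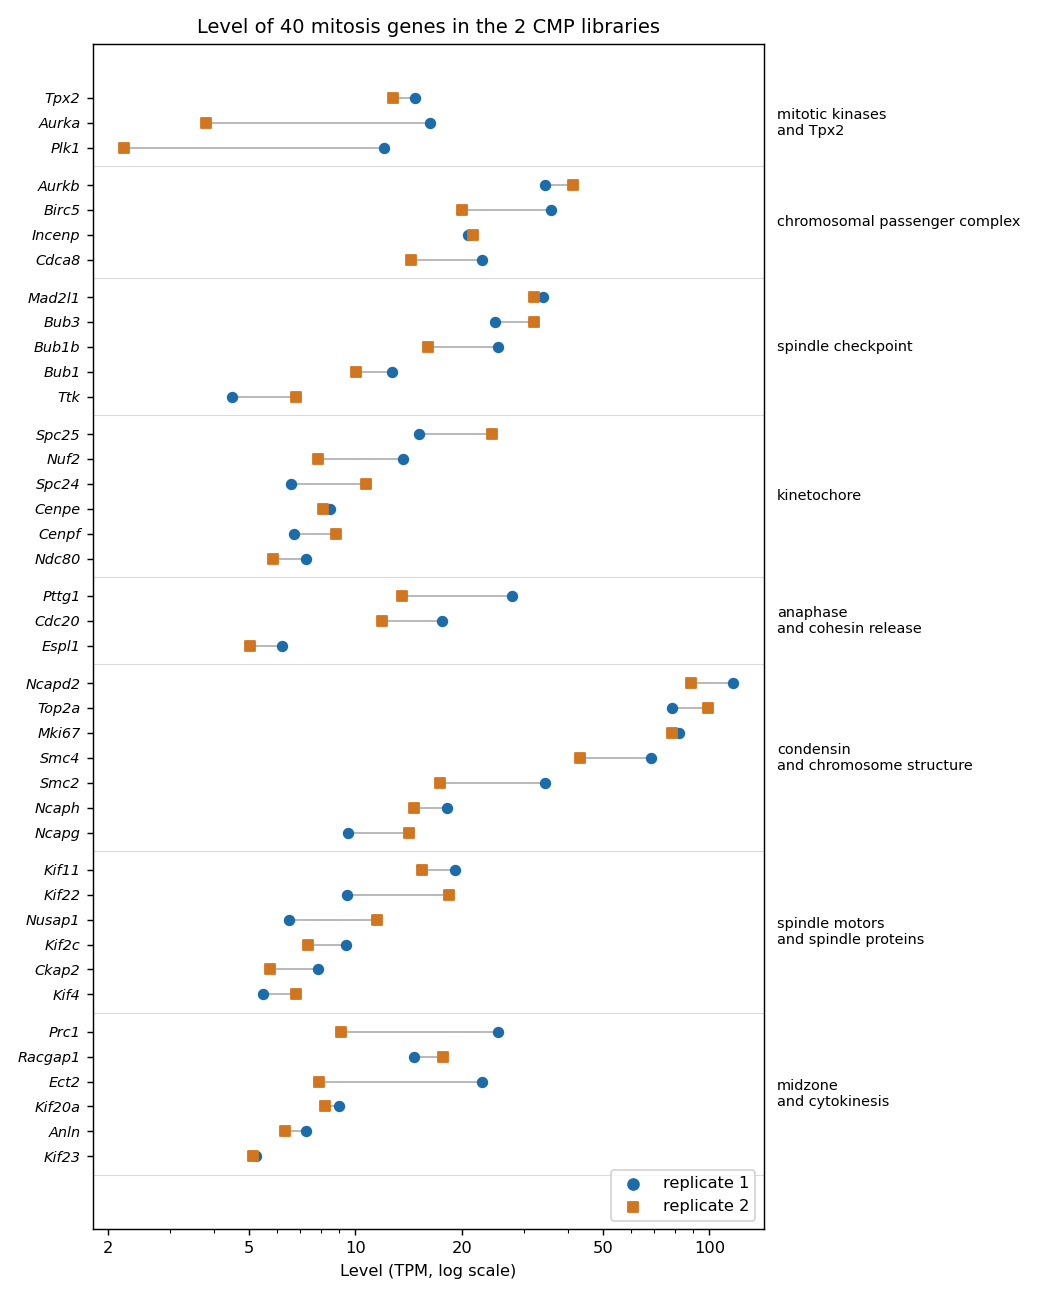
Level of each of the 40 genes in TPM on a log scale, grouped by role, with circles for replicate 1, squares for replicate 2 and a line joining the 2 values of a gene. The condensin and chromosome structure genes Ncapd2, Top2a and Mki67 lie farthest right in both libraries, and the longest lines are those of Plk1 (12.06 and 2.22 TPM) and Aurka (16.22 and 3.79 TPM).

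Sequence around the starts of many of these genes held short motifs known from promoters of genes read late in the cell cycle. The cell cycle homology region, TTTGAA on either strand, is a binding element of the DREAM and MYB-MuvB complexes, and the CCAAT box, CCAAT on either strand, is the element of the trimer NF-Y. Promoters were taken from RefSeq on GRCm38.p6 as 250 bases before to 50 after each annotated start, and 34 of the 40 genes had an entry. TTTGAA was present in 26 of these 34 genes (76.5%), against 20.2% of 27025 genes with a promoter and 14.5% of the 7765 detected nuclear protein-coding genes among them. CCAAT was present in 25 (73.5%), against 41.1% and 43.6%. Both motifs occurred together in 23 genes (67.6%), against 7.97% and 6.10%. A match to any of the E2F-like sites TTTGGCGC, TTTCCCGC and TTTCGCGC on either strand was present in only Ncapd2 and Ncapg among these members (5.88%), against 2.12% of all genes and 4.65% of detected ones. Matches of the motifs were counted whether or not they overlapped.

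The matches lay close to the start. TTTGAA was found in the 50 bases on either side of the start in 22 members (64.7%), against 5.72% of all genes and 3.97% of detected ones, and 11 members (32.4%) had 2 or more CCAAT boxes in the 150 bases before the start, against 6.98% of all genes. Members with TTTGAA and members without it had similar levels, with a median of 14.4 TPM in 26 genes and 13.9 TPM in 8, and similar log2 count ratios between the libraries (replicate 1 over replicate 2), with medians of 0.33 and 0.26. Birc5, Mad2l1, Ncaph, Nuf2, Nusap1 and Pttg1 had neither TTTGAA nor CCAAT in this window.

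The 150 bases before the start are printed 5′ to 3′ in the direction of the gene for the genes that the comparisons below turn on, with matches to TTTGAA and CCAAT or their reverse complements in capitals. Plk1, Aurka and Prc1 differed most between the libraries, Cdc20 and Kif22 differed in opposite directions, Mki67 and Top2a were among the most abundant, Kif11 is the spindle motor with the highest mean TPM, and Nuf2 is shown as a promoter with no match. For Prc1, the second of its 2 starts is shown.
Plk1 (chr7:122159285-122159434, plus strand): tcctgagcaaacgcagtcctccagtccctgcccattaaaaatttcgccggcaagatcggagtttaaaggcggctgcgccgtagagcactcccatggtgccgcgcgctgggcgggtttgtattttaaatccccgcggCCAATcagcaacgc
Aurka (chr2:172370571-172370720, minus strand): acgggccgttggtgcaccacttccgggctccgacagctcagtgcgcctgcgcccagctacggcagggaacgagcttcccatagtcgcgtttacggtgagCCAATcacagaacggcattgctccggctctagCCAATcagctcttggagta
Prc1 (chr7:80294326-80294475, plus strand): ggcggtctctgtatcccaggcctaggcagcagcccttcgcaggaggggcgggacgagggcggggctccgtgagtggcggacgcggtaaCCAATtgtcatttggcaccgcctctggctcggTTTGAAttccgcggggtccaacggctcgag
Cdc20 (chr4:118437344-118437493, minus strand): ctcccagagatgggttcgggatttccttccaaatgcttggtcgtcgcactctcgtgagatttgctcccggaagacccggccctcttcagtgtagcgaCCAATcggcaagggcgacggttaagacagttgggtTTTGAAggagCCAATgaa
Kif11 (chr19:37376232-37376381, plus strand): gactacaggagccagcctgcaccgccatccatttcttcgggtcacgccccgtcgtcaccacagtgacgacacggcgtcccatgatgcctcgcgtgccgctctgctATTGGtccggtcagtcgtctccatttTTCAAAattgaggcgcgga
Kif22 (chr7:127042421-127042570, minus strand): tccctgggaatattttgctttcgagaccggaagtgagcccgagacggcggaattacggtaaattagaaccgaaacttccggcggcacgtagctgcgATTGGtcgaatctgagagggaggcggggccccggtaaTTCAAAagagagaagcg
Mki67 (chr7:135716380-135716529, minus strand): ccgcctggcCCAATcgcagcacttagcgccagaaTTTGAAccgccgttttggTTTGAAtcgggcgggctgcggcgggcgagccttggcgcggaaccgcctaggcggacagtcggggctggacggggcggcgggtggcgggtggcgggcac
Top2a (chr11:99024190-99024339, minus strand): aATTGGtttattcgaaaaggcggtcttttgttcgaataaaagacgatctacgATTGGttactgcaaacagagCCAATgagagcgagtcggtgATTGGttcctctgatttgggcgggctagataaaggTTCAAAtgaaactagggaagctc
Nuf2 (chr1:169531465-169531614, minus strand): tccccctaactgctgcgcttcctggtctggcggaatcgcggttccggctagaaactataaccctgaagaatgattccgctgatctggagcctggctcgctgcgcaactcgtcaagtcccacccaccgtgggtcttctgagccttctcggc

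The 9 stretches differ in arrangement. In Cdc20, Kif11, Kif22 and Top2a a TTTGAA match stood 17 to 23 bases before the start with a CCAAT box farther upstream: Kif11 had its TTTGAA 19 bases and its CCAAT 45 bases before the start, and Kif22 had these at 17 and 54 bases. In Plk1 and Aurka the TTTGAA match lay outside the printed stretch, 30 and 32 bases after the start, with CCAAT boxes 14 bases before it in Plk1 and 51 and 19 bases before it in Aurka. Mki67 had a pair of TTTGAA matches 116 and 98 bases before its start. A match describes these letters only, and no binding was measured here.

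**Figure D2:**
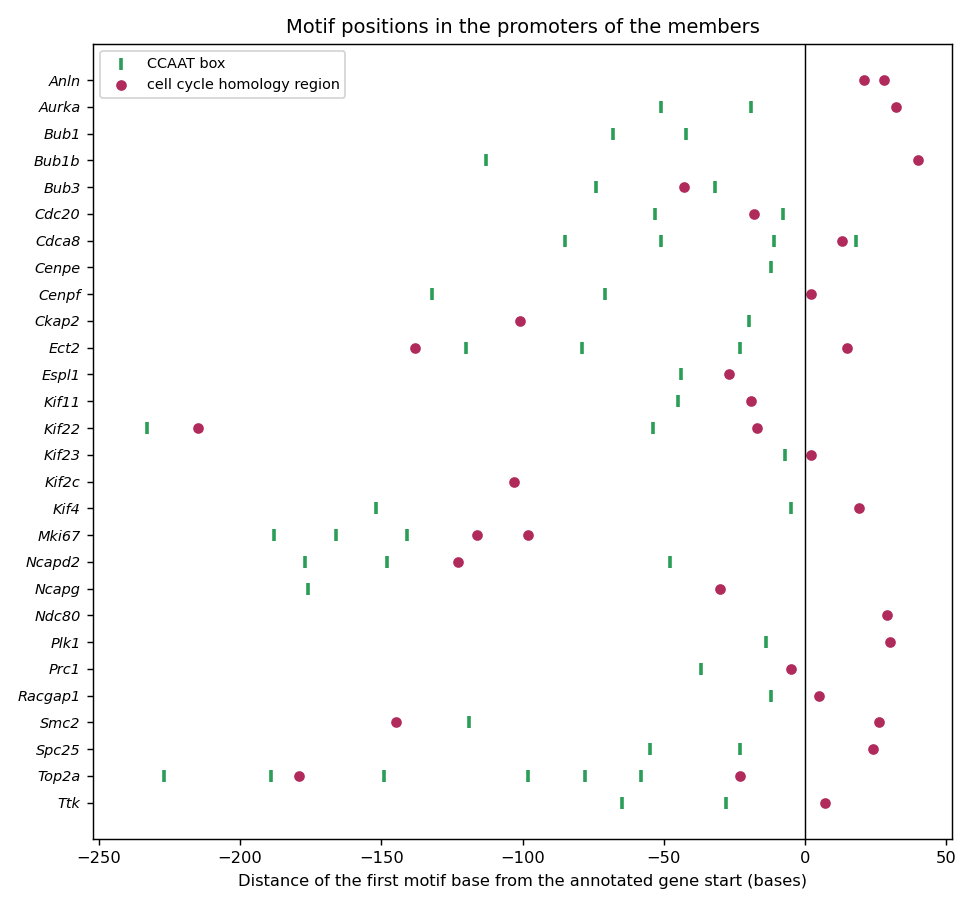
Distance in bases of the first base of each motif match from the annotated gene start, for the members with a match, with bars for CCAAT boxes and circles for the cell cycle homology region; for a gene with more than 1 listed start, the lowest in genome coordinates is drawn. Circles gather within 50 bases of the start in 22 genes, and most bars lie before the start.

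The kinases of mitotic entry showed the widest separation between the 2 libraries. Plk1 (Polo-like kinase 1, chr7:122159439-122169873, plus strand, GRCm38), which promotes entry into mitosis, centrosome maturation and cytokinesis, had 510 counts in replicate 1 and 93 in replicate 2, at 12.06 and 2.22 TPM. Aurka (Aurora A, chr2:172356190-172370535, minus strand), which matures centrosomes and activates Plk1, had 572 counts in replicate 1 and 132 in replicate 2, at 16.22 and 3.79 TPM. Both genes were thus near the middle of the detected genes in replicate 1, at percentiles 47.0 and 57.4, and near the bottom in replicate 2, at percentiles 5.23 and 12.8. The log2 count ratio, replicate 1 over replicate 2 after TMM scaling, was 2.48 for Plk1 (adjusted p = 1.80e-70, two-sided exact binomial test with Benjamini-Hochberg adjustment over 13616 genes) and 2.14 for Aurka (adjusted p = 3.92e-66). Tpx2, the spindle protein that binds and activates Aurora A, did not share this separation: its 14.74 TPM in replicate 1 and 12.76 TPM in replicate 2 gave a log2 count ratio of 0.26. A binomial test asks only whether these 2 libraries differ beyond counting error, and says nothing on conditions or on CMP in general. It called 78.0% of all 13616 genes tested, 37.5% higher in replicate 1 and 40.5% higher in replicate 2.

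The chromosomal passenger complex, which corrects faulty attachments between kinetochores and microtubules, was present with all 4 subunits. The scaffold Incenp had 20.76 TPM in replicate 1 and 21.49 TPM in replicate 2, a log2 count ratio of -0.01 (adjusted p = 0.876). Birc5, or survivin, had 35.66 and 20.0 TPM with a ratio of 0.79, and Cdca8, or borealin, had 22.86 and 14.34 TPM with a ratio of 0.74. The catalytic subunit Aurkb (Aurora B) was the most abundant by mean TPM over all transcripts, at 34.27 TPM in replicate 1 and 41.34 TPM in replicate 2. Its counts ran the other way, 1128 in replicate 1 and 769 in replicate 2 (log2 count ratio 0.58). Over coding transcripts alone Birc5 had the higher mean, 27.8 TPM against 24.2 TPM for Aurkb. By counts, 3 of the 4 subunits were called higher in replicate 1, as were 37.5% of all genes tested. The scaffold was not called in either direction.

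Among the 5 spindle checkpoint genes, Mad2l1, the MAD2 protein of the inhibitory complex, led with 33.9 TPM in replicate 1 and 31.99 TPM in replicate 2. Bub3, which docks the checkpoint at kinetochores, had 24.75 and 31.9 TPM and a log2 count ratio of -0.32, whereas its partner Bub1b, or BUBR1, had 25.26 and 16.04 TPM and a ratio of 0.56. The kinase Bub1 had 12.74 TPM in replicate 1 and 10.05 TPM in replicate 2, with a ratio of 0.61. Ttk, or MPS1, the kinase that starts checkpoint signalling, was the least abundant at 4.5 and 6.82 TPM, with 212 counts in replicate 1 and 369 in replicate 2 (ratio -0.77). Of the 5 checkpoint genes, 3 were called higher in replicate 1 and 2 in replicate 2, beside 37.5% and 40.5% of all genes tested.

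Kinetochore genes were among the lowest, with a median of 7.88 TPM in replicate 1 and 8.46 TPM in replicate 2 over 6 genes. The 4 subunits of the NDC80 complex, which binds microtubule ends, were not alike. Ndc80 had 7.25 TPM in replicate 1 and 5.86 TPM in replicate 2, and Nuf2, its direct partner, had 13.66 and 7.87 TPM, both called higher in replicate 1 (log2 count ratios 0.35 and 0.82). Spc24 had 6.59 and 10.73 TPM and was called higher in replicate 2 (ratio -0.65), and Spc25 had 15.19 and 24.38 TPM with near-equal counts of 364 and 353, and was not called (ratio 0.07). The 4 subunits thus showed no common direction, where 37.5% of all genes tested were called higher in replicate 1 and 40.5% in replicate 2. The motor Cenpe had 8.51 and 8.1 TPM and was not called, and Cenpf, a large protein of the outer kinetochore, had 6.72 and 8.83 TPM with a ratio of -0.25.

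At anaphase onset, Cdc20, the activator of the anaphase-promoting complex, had 17.6 TPM in replicate 1 and 11.91 TPM in replicate 2, with 515 and 267 counts (log2 count ratio 0.97). The protease separase, Espl1, had 6.21 and 5.04 TPM (ratio 0.34). Its inhibitor securin, Pttg1, had 27.77 TPM in replicate 1 and 13.54 TPM in replicate 2, but 190 counts in replicate 1 and 239 in replicate 2 (ratio -0.30, adjusted p = 0.0440). Securin RNA exceeded separase RNA in TPM in both libraries, although the direction of the difference between libraries depended on the measure.

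The condensin and chromosome structure genes held the highest levels, 408 TPM of the 917 TPM of all members in replicate 1 and 356 of 785 TPM in replicate 2. Mki67 (Ki-67, chr7:135689784-135716361, minus strand), which coats mitotic chromosomes and is the usual marker of dividing cells, had 82.14 TPM in replicate 1 and 78.42 TPM in replicate 2 and the most counts of any member, 16755 and 15937. Its log2 count ratio of 0.10 was called at this depth (adjusted p = 1.05e-09), yet it was -0.01 when libraries were scaled to their nuclear protein-coding counts. Top2a, the topoisomerase that untangles sister chromatids, had 78.61 and 99.16 TPM, and 4732 and 4119 counts, so that TPM and counts differed in direction (count ratio 0.23, TPM ratio -0.34, both log2).

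Condensin I subunits were spread over a wide range. Ncapd2 (chr6:125168007-125191701, minus strand) was the highest of all members by mean TPM, at 116.71 TPM in replicate 1 and 88.95 TPM in replicate 2, where Top2a lay above it, and Smc4, a core ATPase of condensin, had 68.51 and 43.02 TPM. Smc2, its ATPase partner in an equimolar pair, had 34.34 and 17.35 TPM, with a log2 count ratio of 0.80 where Smc4 had 0.12. The remaining subunits Ncaph, at 18.13 and 14.64 TPM, and Ncapg, at 9.57 and 14.23 TPM, were the lowest of the complex, and both were called higher in replicate 2 by counts (ratios -0.24 and -0.30). The 4 highest members of all, Ncapd2, Top2a, Mki67 and Smc4 by mean TPM, took 37.7% of the members' TPM in replicate 1 and 39.5% in replicate 2.

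The spindle motors and spindle proteins had a median of 8.65 TPM in replicate 1 and 9.44 TPM in replicate 2. Kif11 (Eg5), the kinesin that pushes spindle poles apart, was highest by mean TPM at 19.18 and 15.41 TPM. Kif22, the chromosome arm motor that pushes chromosomes outward, had 9.49 TPM in replicate 1 and 18.42 TPM in replicate 2, with 374 and 718 counts, and its log2 count ratio of -0.91 was the largest in favour of replicate 2 among the 40. Kif2c, the microtubule-depolymerising motor of centromeres, had 9.44 and 7.36 TPM, and Ckap2, a spindle pole protein, had 7.87 and 5.74 TPM, both called higher in replicate 1 (ratios 0.31 and 0.50). Kif4, the chromokinesin of the midzone and chromosome arms, had 5.5 and 6.79 TPM and 494 and 500 counts, and was not called. Nusap1, which bundles spindle microtubules near chromosomes, had 6.49 and 11.51 TPM but 380 and 320 counts.

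In the midzone and cytokinesis group, Prc1 (chr7:80294450-80316259, plus strand), which cross-links antiparallel microtubules of the midzone, had 25.26 TPM in replicate 1 and 9.14 TPM in replicate 2, with 950 and 464 counts. Its log2 count ratio of 1.06 (adjusted p = 1.42e-39) was the third of the 40. Ect2, the exchange factor that activates RhoA at the furrow, had 22.84 and 7.9 TPM with 905 and 502 counts (ratio 0.88). Racgap1 and Kif23, which form the centralspindlin complex that recruits Ect2, did not follow it: Racgap1 had 14.67 and 17.75 TPM (ratio -0.16, adjusted p = 0.0352), and Kif23 had 5.24 and 5.16 TPM (ratio 0.06, adjusted p = 0.639). Kif20a, the motor that carries the passenger complex to the midzone, had 8.98 and 8.23 TPM and was not called, and Anln (anillin), a scaffold of the furrow, had 7.24 and 6.33 TPM (ratio 0.23).

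Taking the 40 genes together, 34 were called different between the libraries, 25 higher in replicate 1 and 9 higher in replicate 2, and Cenpe, Incenp, Kif20a, Kif23, Kif4 and Spc25 were not called. Calls were common throughout: 78.0% of all 13616 genes tested were called, 37.5% higher in replicate 1 and 40.5% higher in replicate 2. Among the 8052 nuclear protein-coding genes with at least as many summed counts as the lowest member (424), 75.8% were called, 38.9% higher in replicate 1 and 37.0% higher in replicate 2, so that the share of members called is near the background while 25 of 40 leaned to replicate 1. The median log2 ratio was 0.25 over the members, -0.03 over all genes tested and 0.01 at the members' counts. When edgeR's exact test used the common dispersion estimated from both libraries (0.575), no member was called, none had an unadjusted p under 0.05, and 0 of 13616 genes were called although 1541 had an unadjusted p under 0.05. The smallest unadjusted p of a member was then 0.158, for Plk1 (exact test). This dispersion was estimated over all genes tested, low counts included, from the same 2 libraries that were compared. The test thus took their difference as its error, and its lack of calls decides nothing about the members.

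The size of the differences separated a few genes from the rest. Plk1, Aurka and Prc1 were 2-fold or more apart, all higher in replicate 1, which is 3 of 40 against 30.2% of all genes tested and 8.13% of genes at the members' counts. Plk1 and Aurka were also 4-fold or more apart, as were 0.671% (54) of the 8052 genes at those counts. The median absolute log2 ratio was 0.33 over the members, 0.32 at the members' counts and 0.38 over the 10140 nuclear protein-coding genes with 100 or more counts.

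**Figure D3:**
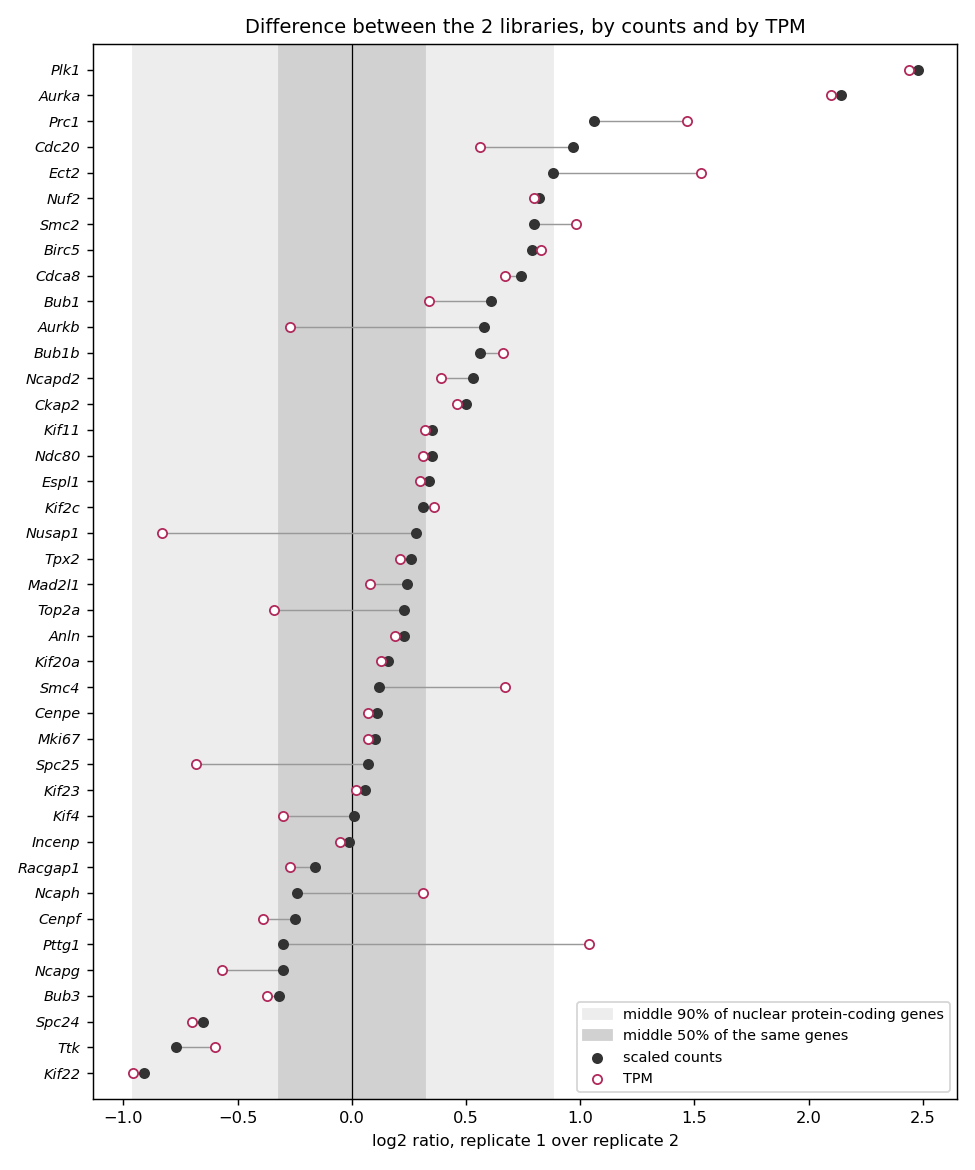
Log2 ratio of replicate 1 over replicate 2 for each of the 40 genes, with filled circles for TMM-scaled counts, open circles for TPM, and shaded bands for the middle 50% (-0.32 to 0.32) and 90% (-0.96 to 0.88) of the count ratios of 8052 nuclear protein-coding genes at the members' depth. Plk1, Aurka, Prc1 and Cdc20 lie beyond the upper band by counts, and open and filled circles lie on opposite sides of 0 for 7 genes.

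Markers of other blood cells differed between the same libraries. The summed TPM of 6 megakaryocyte markers was 73.9 in replicate 1 and 132 in replicate 2, with Ppbp and Gp6 at 0 counts and Pf4, platelet factor 4, at 52.01 and 94.98 TPM. The 8 erythroblast markers summed to 82.6 and 84.7 TPM with Alas2 at 0 counts, but their globins differed in opposite directions. The 2 alpha globin copies summed to 21.3 TPM in replicate 1 and 63.1 TPM in replicate 2, and the 2 beta globin copies to 28.7 and 5.08 TPM; values of single copies, which are near-identical, are uncertain. Monocyte and macrophage markers summed to 37.7 and 30.7 TPM (C1qa and C1qb at 0 counts, Csf1r at 10.79 and 4.63 TPM, Ccr2 at 2.08 and 7.99 TPM), neutrophil markers to 8.53 and 7.31 TPM (Mmp8 at 0 counts), B cell markers to 12.8 and 12.3 TPM (Cd79a, Pax5 and Ms4a1 at 0 counts, Cd79b at 7.6 and 12.18 TPM, and Vpreb1 at 5.21 and 0.09 TPM with 66 counts and 1), T and NK cell markers to 0.200 and 3.81 TPM (Cd3e, Cd3g, Cd8a and Ncr1 at 0 counts) and stromal and endothelial markers to 27.8 and 25.1 TPM (Col1a1 and Cdh5 at 0 counts). The part of these markers in the differences of the mitosis genes was not tested.

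A gene's TPM depends on which of its transcripts the reads are assigned to, and for 7 members TPM and counts differed in direction: Aurkb, Kif4, Ncaph, Nusap1, Pttg1, Spc25 and Top2a, beside 14.2% of detected nuclear protein-coding genes. The authors' intervals of the TPM estimates, whose level is not stated, did not overlap between the libraries for 25 of 40 members, beside 61.9% of detected genes. In the annotation 13 members, among them Plk1 and Mki67, had 1 transcript. Of the other 27, 20 had the same leading transcript in both libraries, beside 59.5% of 7176 such genes, and the leading transcript took a different share of the gene's counts in 21 (Fisher's exact test with Benjamini-Hochberg adjustment), beside 77.6%.

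In several members the reads were assigned to different transcripts in the 2 libraries. Most Aurkb reads went to the 1831-base coding transcript Aurkb-202 in replicate 1, with 1061 of 1128 counts. In replicate 2 most went to the 1950-base coding transcript Aurkb-201, with 633 of 769 counts and none on Aurkb-202. There, 75 counts on the 393-base non-coding Aurkb-206 made 38.18% of the gene's TPM. The coding share of Aurkb was 91.0% in replicate 1 and 41.8% in replicate 2. Its coding transcripts alone had 31.2 and 17.26 TPM, the direction of its counts. Pttg1 had 98 of 190 counts in replicate 1 on a 388-base retained-intron transcript, which took 70.7% of its TPM, and 0 of 239 counts on it in replicate 2, where a 741-base and a 1674-base coding transcript had 100 and 134 counts. Short transcripts turn few reads into many TPM: in Nusap1, 18 counts on the 312-base non-coding Nusap1-204 made 50.84% of the gene's TPM in replicate 2, where replicate 1 had 0 counts on it. Spc25, Ect2, Bub1b and Top2a also had different leading transcripts. In contrast, Aurka had all its TPM in coding transcripts in both libraries. Its difference did not come with a change in coding share. For Plk1, with 1 annotated transcript, this share could not change.

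By mean TPM a coding transcript led in 38 of the 40 members (36 in replicate 2 alone), and in 25 of the 27 with several transcripts, beside 80.4% of such genes. The exceptions were Pttg1 and Ncapd2. Ncapd2 had only 21.7% of its TPM in coding transcripts in replicate 1 and 16.8% in replicate 2, with 64.5% and 77.2% in transcripts annotated as retained introns. Its leading transcript was the 894-base retained-intron Ncapd2-206 in both libraries, with 691 and 503 counts, while its 4629-base coding transcript Ncapd2-201 had 1841 and 1310 counts. Retained introns also took 20.3% and 38.3% of the TPM of Bub1, 54.4% and 50.8% of the TPM of Bub1b, 32.6% and 37.4% of that of Ncapg, and 28.6% and 22.7% of that of Smc4. In other members this share differed more between replicates 1 and 2, among them Ttk (56.3% and 6.60%), Ect2 (40.9% and 0%), Mad2l1 (22.9% and 0%) and Cdc20 (17.6% and 42.5%). Coding transcripts of Ect2 had 8.06 and 3.66 TPM, beside 22.84 and 7.9 TPM over all its transcripts.

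With coding transcripts alone, all 40 genes were still at 1 TPM or more in both libraries, and the median level was 10.1 TPM. The order at the top then differed. Mki67 led with 82.14 TPM in replicate 1 and 78.42 TPM in replicate 2, Top2a followed with 39.03 and 29.74 TPM, and Ncapd2 was ninth of the 40 with 25.3 and 14.9 TPM. Condensin ATPases were closer on this measure, Smc4 at 23.52 and 29.36 TPM and Smc2 at 22.57 and 13.62 TPM. TPM and counts then differed in direction for 3 members: Spc25 as before, and Mad2l1 and Smc4, whose TPM over all transcripts had the direction of their counts. Ttk became the lowest at 1.97 and 6.37 TPM. This measure was added after the values were seen.

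**Figure D4:**
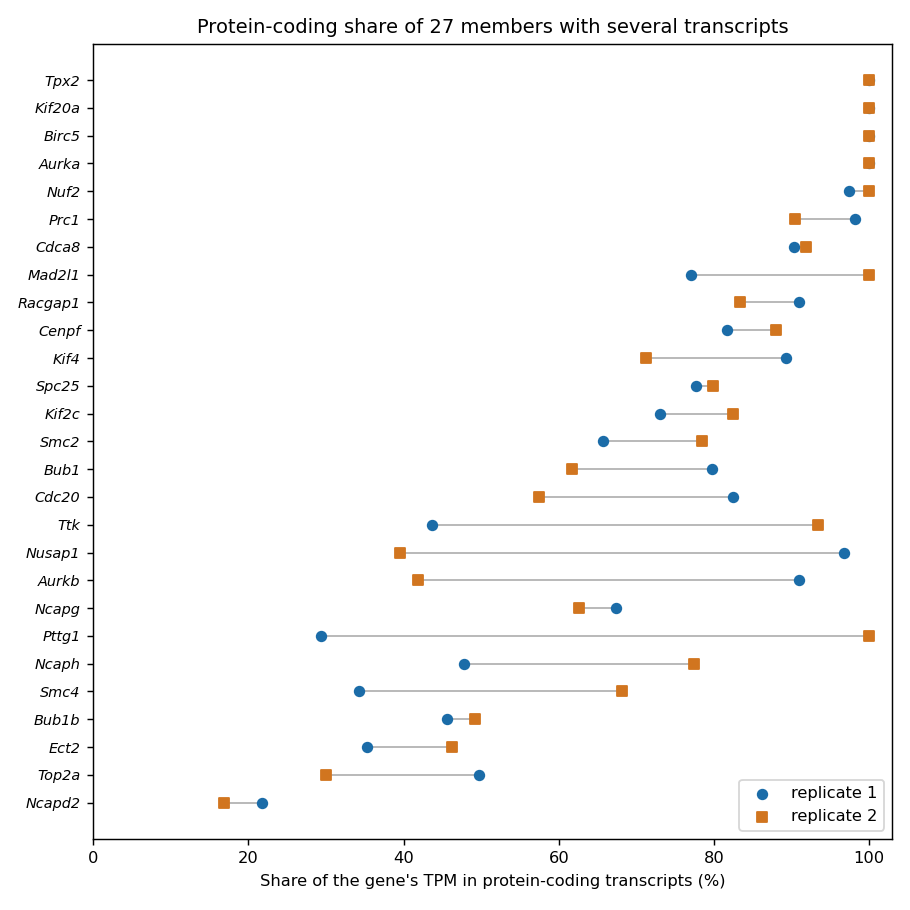
Share of each gene's TPM in annotated protein-coding transcripts for the 27 members with several transcripts, with circles for replicate 1 and squares for replicate 2. Ncapd2 lies lowest (21.7% and 16.8%), and Pttg1, Nusap1, Ttk and Aurkb have the longest lines.

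Other genes of cell division gave a frame for these levels. The 18 genes of the G2/M cyclins, CDK1 and its regulators had a median of 16.8 TPM in replicate 1 and 16.6 TPM in replicate 2, close to the members. Their 3 highest were Cks2 (82.23 and 126.9 TPM) and Cks1b (52.91 and 68.65 TPM), small CDK-binding proteins, and cyclin A2, Ccna2 (46.87 and 34.92 TPM), and their 3 lowest were the phosphatases Cdc25b (4.07 and 5.17 TPM) and Cdc25c (1.55 and 1.18 TPM) and the Greatwall kinase Mastl (4.94 and 1.66 TPM). Of the 18, 9 were called higher in replicate 1 and 5 in replicate 2, beside 37.5% and 40.5% of all genes tested. Cdk1 had 38.93 and 27.2 TPM (log2 count ratio 0.54), Ccnb1 20.81 and 19.69 TPM (-0.09) and Ccnb2 17.12 and 31.55 TPM (-0.83), and Foxm1, a transcription factor of G2/M genes, had 11.03 and 15.89 TPM (-0.85). These 4 genes were chosen after their values were seen, and the median log2 count ratio over all 18 was 0.32.

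Machinery that acts with the members was expressed at levels above or beside theirs. The 16 APC/C subunits and partners had medians of 32.4 and 31.4 TPM, led by Anapc5 (75.07 and 70.83 TPM), Anapc1 (91.23 and 40.44 TPM) and Anapc13 (51.43 and 78.6 TPM), with Fbxo5 (11.99 and 17.95 TPM), Anapc7 (8.95 and 11.15 TPM) and Anapc10 (1.43 and 2.79 TPM) lowest. Of these, 9 were called higher in replicate 1 and 3 in replicate 2, beside 37.5% and 40.5% of all genes tested. Cohesin and its regulators, 13 genes, had medians of 27.6 and 26.1 TPM, led by the core subunits Smc1a (53.06 and 54.62 TPM) and Rad21 (46.7 and 41.92 TPM) and by Pds5a (44.26 and 35.72 TPM), with Cdca5 (9.85 and 8.35 TPM), Esco1 (7.87 and 8.92 TPM) and Esco2 (7.4 and 5.37 TPM) lowest. Calls were 6 higher in replicate 1 and 3 in replicate 2, beside the same shares of all genes tested. The kleisin target of separase was thus more abundant than separase itself in both libraries.

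Of the 28 other kinetochore and centromere genes, 14 were called higher in replicate 1 and 6 in replicate 2. Over all genes tested these shares were 37.5% and 40.5%. The 28 genes had medians of 12.0 TPM in replicate 1 and 9.34 TPM in replicate 2. They ran between Hjurp, the CENP-A chaperone, at 82.99 and 56.24 TPM, Pmf1 at 57.39 and 59.51 TPM and Cenpa, the centromeric histone, at 45.5 and 55.55 TPM, and Ska1 (4.93 and 4.73 TPM), Oip5 (3.28 and 4.44 TPM) and Spdl1 (3.71 and 2.89 TPM). The 3 genes at the top of that list were thus above each of the 6 kinetochore members in both libraries. Condensin II and related genes had medians of 22.0 and 13.2 TPM over 4 genes, with Ncaph2 at 54.65 and 58.91 TPM, Ncapd3 at 26.92 and 13.28 TPM, Mcph1 at 17.14 and 13.14 TPM and Ncapg2 at 10.31 and 11.26 TPM, and 3 of them were called higher in replicate 1.

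Among the 10 other mitotic kinases and phosphatase partners that matched, 3 were called in each direction. Over all genes tested, 37.5% were called higher in replicate 1 and 40.5% in replicate 2. These 10 genes had medians of 9.82 TPM in replicate 1 and 9.48 TPM in replicate 2. Their highest were Ppp2r5c (20.59 and 21.77 TPM), Plk4, the kinase of centriole duplication (12.96 and 27.14 TPM), and Bora, a co-activator of Aurora A (15.0 and 16.61 TPM). Their lowest were Sgo2a (2.38 and 4.37 TPM), Nek2 (2.87 and 3.66 TPM) and Nek6, which at 0.81 TPM in replicate 1 was the only partner gene under 1 TPM. Bora had a log2 count ratio of -0.11 and was not called. The 25 other spindle, motor and cytokinesis genes had medians of 11.9 and 10.1 TPM with 11 called in each direction, from the tubulins Tuba1b (938.66 and 719.2 TPM) and Tubb5 (323.11 and 265.75 TPM) and the tubulin-binding Stmn1 (350.17 and 354.43 TPM) down to Cep55 (1.7 and 5.07 TPM), Depdc1a (2.55 and 3.87 TPM) and Kifc1 (1.34 and 2.95 TPM).

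Genes of G1/S and DNA replication stood above the mitosis genes, with medians of 39.6 TPM in replicate 1 and 35.4 TPM in replicate 2 over 31 genes, against 15.0 and 12.3 TPM for the members. Cdk4 (269.03 and 231.59 TPM), the replication clamp Pcna (210.87 and 201.02 TPM) and the helicase subunit Mcm3 (206.77 and 176.01 TPM) led that list, and cyclin D1, Ccnd1 (1.99 and 3.05 TPM), and E2f2 (1.89 and 2.95 TPM) closed it. Of the 31, 20 were called higher in replicate 1 and 7 in replicate 2, beside 37.5% and 40.5% of all genes tested. By scaled counts, no called gene of these 8 lists stood 4-fold apart between the libraries, as Plk1 and Aurka did. By TPM, E2f3 had 3.74 TPM in replicate 1 and 16.49 TPM in replicate 2, although its log2 count ratio was -0.75.

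**Figure D5:**
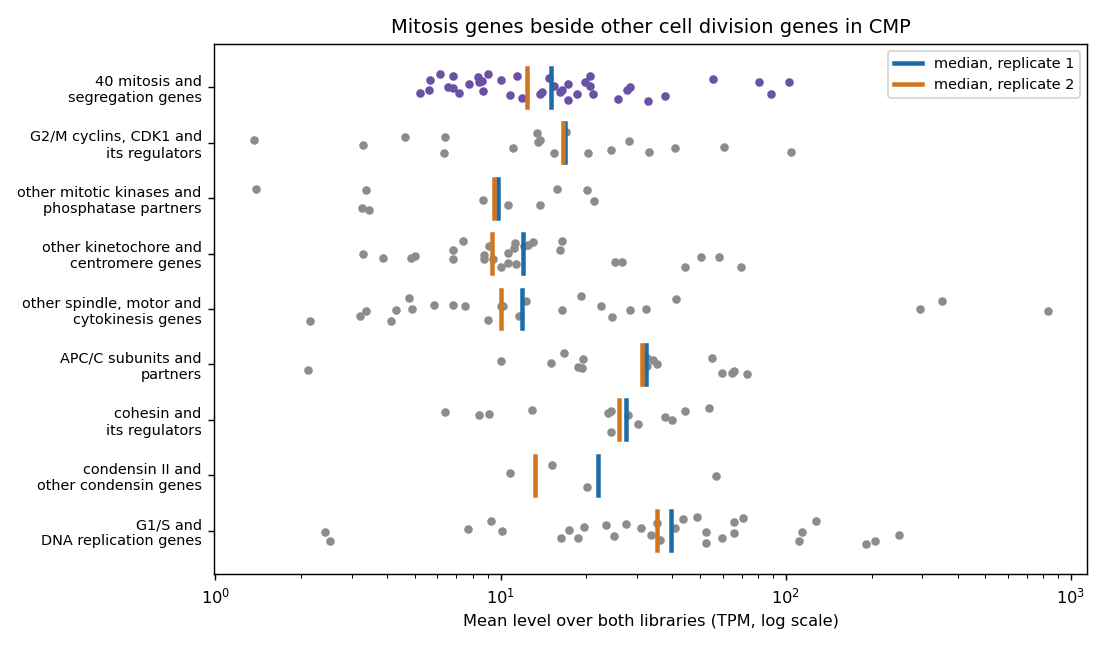
Mean TPM over both libraries, on a log scale, of the 40 members (top row) and of 8 lists of other cell division genes, 1 point per gene, with vertical bars for the median of each list in replicate 1 and in replicate 2. The members' medians (15.0 and 12.3 TPM) lie near those of the G2/M cyclin list and below those of the APC/C, cohesin and G1/S lists.

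Some values may include reads of neighbouring genes, since strand counting is not stated. Exons of 11 members share bases with exons of another annotated gene, and for 4 of them, all with a gene on the opposite strand, this covers over 10% of their exon bases: Kif20a with Cdc23 (29.3%), Kif4 with Pdzd11 (15.1%), Ncapg with Lcorl (13.4%) and Prc1 with Rccd1 (11.1%). On their own strand, Ncapd2 shares 237 exon bases with the small RNA gene Scarna10 and 235 with Gm28967, and Top2a shares 122 with the small nucleolar RNA gene Gm23451, each under 10% of the member's exon bases.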

How the data were processed

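Total RNA of 2 pools of 100 CMP was measured, with 1 gene table and 1 transcript table per library. The authors made the tables from transcriptome alignments on mm10 with GENCODE M4, per the file headers and the notes deposited beside them, and the software that aligned and quantified the reads is not given in the sources used here. Expected counts, as deposited, are estimates that divide shared reads, and they were rounded to whole numbers here. The deposited TPM values are scaled to one fixed total over all table entries, including tRNA and spike-ins. The deposited percent values give each transcript's share of its gene's TPM. The deposited intervals of TPM carry no stated level.

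Gene and transcript names, types and coordinates were taken from GENCODE M21 (GRCm38), to which 42462 of 43346 mouse genes matched by identifier without version. The 26345 other entries (tRNA, spike-ins and phiX) were left out of tests. Counts were scaled by TMM in edgeR 4.0.16 (R 4.3.3), and the 13616 genes that reached 10 counts in either library were compared by a two-sided exact binomial test (SciPy 1.17.1) with Benjamini-Hochberg adjustment at 0.05. Log2 ratios used a pseudocount of 0.5 counts and run replicate 1 over replicate 2. For genes of at least 2 transcripts that reached 50 counts in each library, the leading transcript's share of the counts was compared by Fisher's exact test. Intervals, floors and the p-values of the binomial and Fisher's tests cover counting error only, and these tests estimate no spread between libraries. Only edgeR's exact test took that spread into account, at the common dispersion of 0.575. Nothing says that the pools came from separate animals, so differences between these 2 libraries may be technical.

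Genes named were all 40 members, the 3 highest and 3 lowest of each partner list by mean TPM, any partner called and 4-fold apart, and the highest or undetected markers. Fcgr3, Fcgr2b, Ccr2, E2f3, Cdk1, Ccnb1, Ccnb2 and Foxm1 lie outside this rule and were chosen after their values were seen. A gene that this rule names is not reported here. The members and lists were chosen with earlier results of these data known. Alternatives tried were DESeq2 1.42.0 size factors, nuclear protein-coding totals, other count and TPM minimums, edgeR's exact test at the common dispersion, a pseudocount of 5, posterior mean TPM, TPM rescaled over nuclear protein-coding genes, coding transcripts alone, a shorter promoter window and leaving out each library. The statistics were tested on simulated data. Protein sequence motifs were not analysed here.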

Additional observations from a re-analysis of the deposited data

How the results depend on the processing

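No paired analysis was possible because both libraries belong to 1 group. The median level of the members was 35.5 TPM when TPM was rescaled over nuclear protein-coding genes, which raises every gene by its construction, and 10.1 TPM with coding transcripts alone, an alternative chosen after seeing the data. Leaving out each library gave medians of 12.3 to 15.0 TPM. With edgeR's exact test at the common dispersion, 0 members were called, 0 higher in replicate 1 and 0 higher in replicate 2, with 0 members and 1541 of 13616 genes at an unadjusted p under 0.05; this test takes the spread between the libraries as its error. By TPM, 5 members in place of 3 were 2-fold or more apart, Ect2 and Pttg1 being added.

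Scaling to nuclear protein-coding totals moved the median log2 ratio of all genes to -0.14 (from -0.03 under TMM) and that of the members to 0.13, called 28 members (18 higher in replicate 1, 10 in replicate 2), and turned the sign of 5 small ratios: Cenpe -0.01, Kif23 -0.05, Kif4 -0.10, Mki67 -0.01 and Spc25 -0.04. Under this scaling Anln, Kif2c, Mad2l1, Mki67, Ndc80, Nusap1 and Smc4 were no longer called, and Incenp was (log2 ratio -0.12, higher in replicate 2). DESeq2 size factors, no count minimum and a minimum of 50 counts each gave 34 called. At 5 TPM 37 members were detected in both libraries. With the 150-base promoter window, TTTGAA was in 26 members and both motifs in 22. The search for degradation motifs in the proteins was not run.

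Depth limits the low members most: Plk1 in replicate 2 rests on 93 counts and Aurka on 132. The 2 libraries, each of 100 cells, give no estimate of the spread beyond this pair, and retained-intron values rest on how reads shared between transcripts were divided.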
